A study of Ovis aries with 15 samples.

Results

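Interleukin-6 (IL6), pentraxin 3 (PTX3), interleukin-10 (IL10), interleukin-15 (IL15) and the interleukin-13 receptor chain IL13RA1 were followed in the kidney cortex of fetal sheep. The members were all probes that the array's gene name column gives to these 5 genes, in any case, so they are 5 of 965 named genes, and 11 of 15008 probes. IL6 had 1 probe, PTX3, IL10 and IL13RA1 had 2 each, and IL15 had 4. The scanner marks a probe as well above background or not, and 12925 probes carried that mark on 3 or more of the 15 arrays and were tested. All 11 were among them, but IL6, IL10 probe A_70_P030057 and IL15 probe A_70_P030111 met this through hypoxic fetuses alone, with 5, 4 and 4 hypoxic arrays and 0 normoxic ones. The filter therefore favours a rise with hypoxia for these 3 probes.

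Each array held RNA of 1 fetus at 125 ± 3 d of gestation, chronically catheterised. The groups were normoxia with saline vehicle (3 fetuses), normoxia with ketamine (4), hypoxia with saline vehicle (4) and hypoxia with ketamine (4). The exposure was 30 min of altered maternal ventilation, and ketamine, a dissociative anaesthetic and antagonist of the NMDA class of glutamate receptor, was given into the fetal circulation at 3 mg/kg, 10 min before it. The cortex was taken 24 h after the exposure began, so every value is a late one, and the series asks whether ketamine alters the inflammatory response to hypoxia.

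IL-6 is the classical inducer of the acute phase response and signals through a receptor that shares the gp130 chain with related cytokines. PTX3 is a soluble pattern recognition protein that endothelial and myeloid cells make locally in response to inflammatory signals, and it binds complement components. IL-10 restrains macrophage and T cell activation, IL-15 supports natural killer cells and memory T cells, and IL13RA1 pairs with the IL-4 receptor alpha chain to bind IL-13 and IL-4.

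The probes are 60 bases long and are given here because they fix what each value detects. The array's annotation places none of them on a chromosome and lists them as unmapped, so exon and strand in the genome are not given. The IL6 probe covers positions 959 to 1018 of its RefSeq transcript, and its first 30 bases are shown.
IL6 A_70_P039706, first 30 bases: ggagccaaatcatttcttgaaatgtgtagg
The pair of PTX3 probes covers positions 778 to 837 and 543 to 602 of 1 expressed sequence tag, without overlap, so they are separate readings of the same transcript.
PTX3 A_70_P010836: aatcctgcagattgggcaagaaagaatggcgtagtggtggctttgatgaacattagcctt
PTX3 A_70_P010837: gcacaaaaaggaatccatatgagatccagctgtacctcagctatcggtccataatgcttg
The IL13RA1 probes lie end to end on 1 coding sequence record, at positions 1146 to 1205 and 1086 to 1145.
IL13RA1 A_70_P002811: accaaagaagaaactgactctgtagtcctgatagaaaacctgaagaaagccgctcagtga
IL13RA1 A_70_P002812: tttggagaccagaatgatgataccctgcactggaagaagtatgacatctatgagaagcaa
Of the IL15 probes, A_70_P030111 and A_70_P030112 come from its RefSeq transcript and share 16 bases, in capitals, so they are not independent readings.
IL15 A_70_P030111: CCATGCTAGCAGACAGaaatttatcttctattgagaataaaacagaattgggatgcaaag
IL15 A_70_P030112: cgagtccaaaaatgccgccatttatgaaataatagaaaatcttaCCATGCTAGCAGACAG
The other IL15 pair, A_70_P041521 and A_70_P041522, comes from an expressed sequence tag and shares 20 bases, and the IL10 pair also shares 20 bases (gaagcaactcaattcctctg). A_70_P041521 was the one member probe that held a run of at least 16 bases found in a probe of another name, and 6.07% of all array probes hold such a run.

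Signal is the scanner's background-subtracted intensity. For tests it was taken on the log2 scale relative to each array's 75th percentile, which ranged from 1064 to 1425, so a value of 0 equals that percentile. Hypoxia ketamine replicate 4 had the fewest probes well above background (75.7%, against 81.0% to 85.2% on the other arrays). The detection limit, taken as the smallest signal so marked, was 18.7 on that array and between 6.94 and 10.95 elsewhere. The array least like the others was hypoxia vehicle replicate 4 (mean r = 0.955 over tested probes), followed by hypoxia ketamine replicate 2 (0.968), and the other arrays were at 0.970 or more. Placental lactogen, a trophoblast product, was well above background on normoxia ketamine replicates 1 and 2 and on hypoxia ketamine replicate 2. Markers of tubule, podocyte and stroma were well above background on every array, as the label kidney cortex would have it. Below, a probe rose or fell where limma's two-sided test stayed at or under 0.05 without adjustment, which is the series' own threshold. No member probe passed 0.05 after Benjamini-Hochberg adjustment over the 12925 probes in any of the 6 comparisons, a step that 0.0155% of all probes passed for hypoxia in vehicle fetuses, 1.6% for hypoxia averaged over both arms and 0% elsewhere. Each p given is adjusted in this way, and where a value passed or failed without adjustment is said in words. Errors of log2 differences are standard errors (SE) of the fit and of group means are SD.

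IL6 was read in hypoxic kidneys and not in normoxic ones. In the 3 normoxic vehicle fetuses its signal was 2.59, 2.58 and 2.90, and in the 4 normoxic ketamine fetuses it was 10.5, 2.20, 3.85 and 3.26, in replicate order. None of these 7 was well above background. In hypoxic vehicle fetuses the signal was 2632, 9.96, 12.7 and 10070. In hypoxic ketamine fetuses it was 23.9, 82.3, 12.5 and 4.39. Thus 2 of the 4 hypoxic vehicle arrays (replicates 1 and 4) had a bright signal and the other two were not well above background, while 3 of the 4 hypoxic ketamine arrays (replicates 1, 2 and 3) were well above it at a much dimmer signal.

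**Figure D1:**
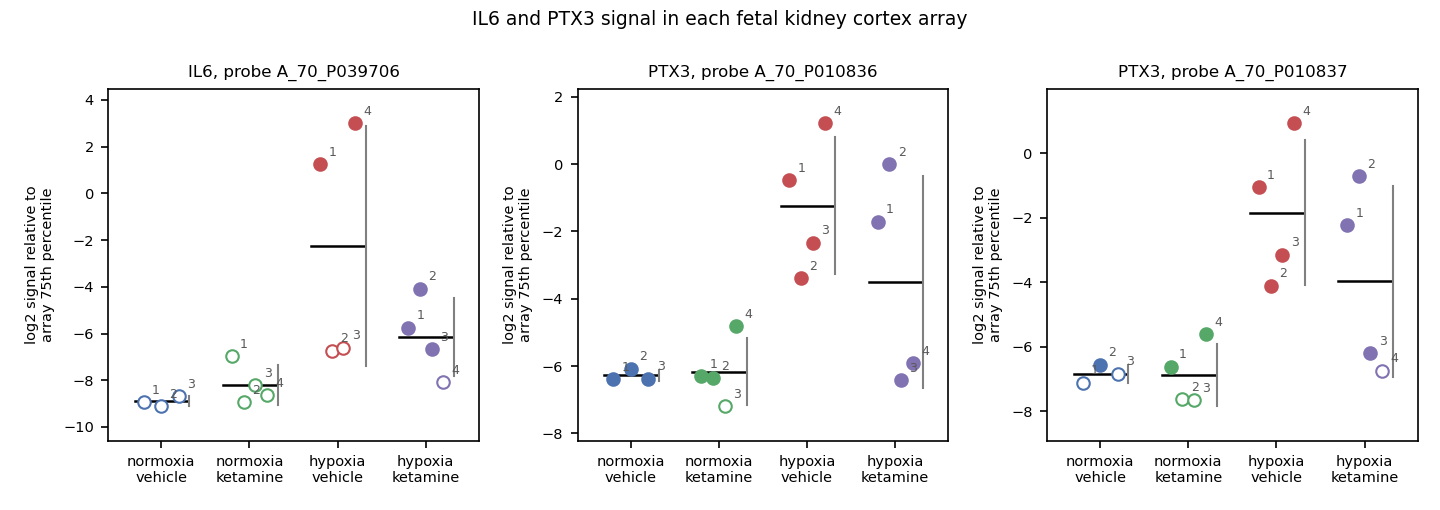
Log2 signal of IL6 (left) and of both PTX3 probes (middle and right) relative to the array's 75th percentile, by group, with 1 point per fetus labelled by replicate number. Filled points were well above background and open points were not, black lines are group means and grey bars are ± 1 SD. The IL6 points of hypoxia vehicle replicates 1 and 4 stand at 1.26 and 3.01 and all other IL6 points are at -4.08 or lower, while all 4 hypoxia vehicle points of PTX3 lie above the normoxic ones.

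The vehicle fetuses show the cortex 24 h after hypoxia without ketamine, and here the members whose probes passed as higher were IL6 and PTX3. IL6 entered the test through hypoxic arrays alone, so its call and the checks below are no support for a rise. The group means of IL6 differed 26.9-fold with each normoxic array set at its own detection limit. Hypoxic arrays kept their measured signal, also where not well above background, so the figure is not a strict lower bound. The hypoxic mean joins replicates 1 and 4, with bright IL6, and replicates 2 and 3, which were not well above background. The 26.9-fold difference therefore describes no single fetus. The fitted log2 difference was 6.63 ± 1.98 (limma, adjusted p = 0.175), with group means of -2.27 ± 5.13 (SD, n = 4) and -8.91 ± 0.22 (SD, n = 3). The fitted value moved from 4.88 without hypoxia vehicle replicate 4 and 5.46 without replicate 1 to 8.08 without replicate 3 and 8.12 without replicate 2, and it passed each time. It was 2.97 and passed after normexp background correction, which adds an offset to dim signals. Within slide 2, which held 1 normoxic vehicle array, it was 6.0 and did not pass.

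PTX3 was higher in every hypoxic vehicle fetus than in any normoxic one, and by probe A_70_P010836 it was detected in almost all fetuses. Probe A_70_P010836 gave 15.1, 21.1 and 14.3 in normoxic vehicle fetuses and 16.8, 13.3, 7.75 and 46.4 in normoxic ketamine fetuses. It gave 793, 102, 245 and 2917 in hypoxic vehicle fetuses, all above the 7 normoxic values. It gave 393, 1397, 14.9 and 19.7 in hypoxic ketamine fetuses, of which replicates 1 and 2 were above the normoxic range and replicates 3 and 4 within it. Hypoxia in vehicle fetuses raised this probe 32.8-fold (log2 5.04 ± 1.41, limma, adjusted p = 0.165).

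The second PTX3 probe was highest in the same 6 hypoxic fetuses and in the same order, while the dimmer arrays were ordered differently. Its signal was 9.13, 15.2 and 10.4 in normoxic vehicle, 13.5, 5.48, 5.67 and 26.8 in normoxic ketamine, 529, 62.0, 139 and 2395 in hypoxic vehicle and 274, 858, 17.2 and 11.1 in hypoxic ketamine fetuses. In that order of groups, 1 of 3, 2 of 4, 4 of 4 and 3 of 4 arrays were well above background. Here too the hypoxic vehicle arrays did not overlap with the normoxic ones. The fitted log2 difference with hypoxia in vehicle fetuses was 4.99 ± 1.40 (limma, adjusted p = 0.165). Over the 15 arrays the PTX3 probes correlated at r = 0.995, and at 0.992 without the 2 arrays farthest from the median.

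In the vehicle comparison 3 of 11 member probes rose and 0 fell, against 16.1% of all tested probes that moved either way and 5.76% that rose. The groups did not overlap for these 3 probes, which held for 14.6% of all probes in either direction and for 5.03% as a rise. IL6, among the 3, entered the test through hypoxic arrays alone. Its call and its lack of overlap are therefore no support for a rise. Both others read the same PTX3 transcript. The median log2 difference over the 11 was 1.05. PTX3 was 4.22 and 4.06 without hypoxia vehicle replicate 4, and 5.75 and 5.74 without replicate 2. Normexp correction brought the PTX3 values to 2.87 and 2.41, which passed, and within slide 2 they were 4.97 and 4.73, which did not.

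After ketamine, PTX3 was high in some hypoxic fetuses and not in others, while IL6 was dim where it was detected. With normoxic arrays raised to their detection limits, the IL6 group mean was 1.87-fold higher in hypoxic than in normoxic ketamine fetuses. The fitted log2 difference was 2.06 ± 1.83, with a 95% interval from -1.89 to 6.0 (limma, adjusted p = 0.831). The fit shares 1 variance over all groups, while the SD of IL6 was 0.87 and 1.67 in normoxic and hypoxic ketamine fetuses and 5.13 in hypoxic vehicle ones. The interval is therefore not the spread of ketamine fetuses alone. With only the compared groups the same difference had an SE of 0.80 and passed. IL6 entered the test through hypoxic arrays alone, so a rise of IL6 was not resolved here. PTX3 probe A_70_P010837 rose by 2.91 ± 1.29 (limma, adjusted p = 0.555). A_70_P010836 stood at 2.66 ± 1.30, with a 95% interval from -0.14 to 5.47 (adjusted p = 0.606). The rise of A_70_P010837 was lost without hypoxia ketamine replicate 1 (2.33) or replicate 2 (1.82), and also when 1 of 6 normoxic arrays was dropped, namely any vehicle array or replicate 1, 2 or 3 of the ketamine arm (2.65 to 3.00). It was also lost with the deposited values (1.66), with slide as a block (2.91), within slide 1 (3.4), within slide 2 (2.41) and without the 3 arrays with placental lactogen together (1.57). Among hypoxic ketamine arrays that product was well above background on replicate 2, which had the highest PTX3 of its group, and its part in the result was not tested. Of A_70_P010836 the value passed with normexp correction (2.02), with array weights (2.39), without hypoxia ketamine replicate 3 (3.63), without replicate 4 (3.46) or without normoxia ketamine replicate 4 (3.11). In this comparison 1 of 11 member probes rose and 2 fell, both of the latter IL13RA1, against 8.65% of all probes that moved, 3.68% that rose and 4.97% that fell.

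Whether ketamine lowered IL6 and PTX3 in hypoxic fetuses was not resolved at this number of arrays. IL6 was 3.87 ± 1.83 lower on the log2 scale in hypoxic ketamine than in hypoxic vehicle fetuses, with a 95% interval from -7.82 to 0.08 (limma, adjusted p = 0.805), and did not pass. It passed without hypoxia vehicle replicate 2 (-5.36) or replicate 3 (-5.32), the arrays with dim IL6, or without hypoxia ketamine replicate 2 (-4.56). It also passed with normexp correction (-2.49), quantile scaling (-4.03) and array weights (-3.53). Without hypoxia vehicle replicate 1 or replicate 4, the arrays with bright IL6, it shrank to -2.695 and -2.111 and did not pass. The differences of PTX3 were -2.27 ± 1.30 and -2.12 ± 1.29, with 95% intervals from -5.07 to 0.54 and from -4.91 to 0.66. Without hypoxia ketamine replicate 2 they were -3.43 and -3.21 and both passed, and without hypoxia vehicle replicate 2 the first passed at -2.98. Over all single arrays left out they ranged from -3.43 to -1.29 and from -3.21 to -1.20. The interaction, which tests whether the response to hypoxia differed between the drug arms, was -4.58 ± 2.70 for IL6 and -2.38 ± 1.92 and -2.08 ± 1.90 for PTX3, none of which passed (limma, adjusted p = 0.989 each). That of IL6 passed at -6.07 without hypoxia vehicle replicate 2 and at -6.03 without replicate 3, and at -4.42 with array weights. Without hypoxia vehicle replicate 1 it was -3.40 and without replicate 4 it was -2.82, and neither passed.

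Averaged over both drug arms, IL6 was higher with hypoxia (log2 4.35 ± 1.35, limma, adjusted p = 0.103). With normoxic arrays raised to their detection limits its means differed 7.09-fold. PTX3 rose by 3.85 ± 0.96 (adjusted p = 0.0584) and 3.95 ± 0.95 (adjusted p = 0.0527). In all 5 of 11 member probes moved, 4 up and 1 down, against 20.2% of all probes, 7.79% up and 12.5% down. IL6, among the 4 that rose, entered the test through hypoxic arrays alone, so its call is no support for a rise. The IL6 value went from 3.47 without hypoxia vehicle replicate 4 to 5.09 without replicate 2, and the latter gave an adjusted p of 0.0432, while the range over all single arrays left out was 0.0432 to 0.195. For the PTX3 probes that range was 0.0308 to 0.126 and 0.0332 to 0.117. The averaged rise of IL6 did not pass after normexp correction (1.81) or within slide 1 (4.52) or slide 2 (4.11), nor did PTX3 probe A_70_P010836 within slide 2 (3.46). IL6 was well above background in 5 of 8 hypoxic and 0 of 7 normoxic fetuses, and both PTX3 probes lay above every normoxic array in 6 of 8 hypoxic ones. The share of all probes with such counts is not given, so they describe these probes only. For IL6 the count is also how it passed the filter. The averaged comparison reuses the arrays of the preceding ones.

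**Figure D2:**
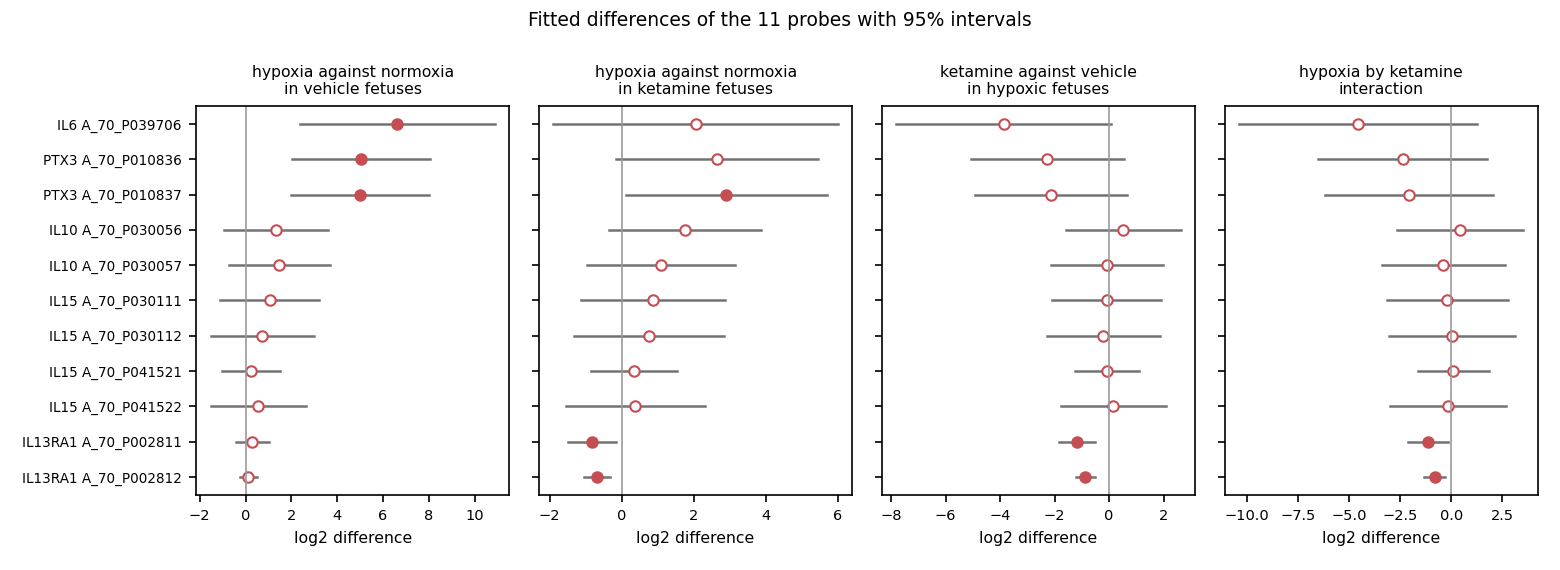
Fitted log2 differences (points) and 95% intervals (lines) of the 11 probes in 4 comparisons, filled where the test passed 0.05 without adjustment. IL6 and PTX3 lie to the right of 0 for hypoxia in vehicle fetuses, and both IL13RA1 probes lie to the left of 0 in the other 3 panels with narrow intervals.

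Among hypoxic vehicle fetuses, IL10 was high where IL6 was dim, while hypoxia ketamine replicates 1 and 2 were above the normoxic arrays in both genes. Probe A_70_P030056 gave 10.5, 12.6 and 11.5 in normoxic vehicle and 17.3, 8.70, 8.36 and 14.3 in normoxic ketamine fetuses. It gave 3.85, 82.9, 128 and 11.2 in hypoxic vehicle and 36.6, 215, 14.1 and 25.4 in hypoxic ketamine fetuses. Hypoxia vehicle replicates 2 and 3, which had dim IL6, were high in IL10, and replicates 1 and 4, which had bright IL6, were at or under the normoxic range. Hypoxia ketamine replicates 1, 2 and 4 also lay above all 7 normoxic arrays, replicate 4 by the least.

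The overlapping probe A_70_P030057 was well above background on 4 arrays, and these were 24.6 and 37.8 in hypoxia vehicle replicates 2 and 3 and 10.9 and 73.0 in hypoxia ketamine replicates 1 and 2. Every other array gave 6.68 or less. The probes correlated at r = 0.948 over the 15 arrays. High and low fetuses were mixed within each hypoxic group. For A_70_P030056 the log2 difference with hypoxia was 1.34 ± 1.06 in vehicle fetuses, with a 95% interval from -0.93 to 3.61, and 1.76 ± 0.98 in ketamine fetuses, with one from -0.34 to 3.87. In vehicle fetuses it was 2.24 and passed without replicate 1 of the hypoxic group, the array with an IL10 signal under all normoxic ones. In ketamine fetuses it passed without hypoxia ketamine replicate 3 (2.28) or hypoxia vehicle replicate 1 (1.76), after normexp correction (0.99) and with the compared groups alone (1.76).

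Averaged over both arms, A_70_P030056 rose by 1.55 ± 0.72 (limma, adjusted p = 0.246), the 1 call among the 12 tests of IL10. That call was lost when any one of 12 arrays was left out, with values from 1.17 to 1.65. Those 12 were all but hypoxia ketamine replicate 3 and hypoxia vehicle replicates 1 and 4. It was also lost without the filter on dim probes (1.55), within slide 2 (1.001) and without the placental lactogen arrays (1.22). Probe A_70_P030057 was at 1.29 ± 0.70 and did not pass, and it passed without hypoxia vehicle replicate 4 (1.64) or hypoxia ketamine replicate 3 (1.56). It entered the test through hypoxic arrays alone, so these values are no support for a rise.

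Of the leukocyte marker lists, the summed level for monocytes and macrophages was higher on the hypoxic arrays, and the other lists overlapped with the normoxic range. The sum is of linear signal, so bright markers weigh most, and single markers are not given. ITGAM was well above background on 3 arrays. The share of all probes that separate hypoxic from normoxic arrays in this way is not given either. The summed level of the 6 measured monocyte and macrophage markers (CD14, CD86, FCER1G, FCGR1A, FCGR2B and ITGAM), relative to the 75th percentile, was 0.845 to 1.01 in the 7 normoxic fetuses. It was 1.33, 2.03, 3.93 and 2.05 in hypoxic vehicle and 1.65, 3.74, 1.19 and 1.52 in hypoxic ketamine fetuses, so every hypoxic array lay above the normoxic range. The cathelicidin CATHL3, the 1 measured gene of 10 on the neutrophil list, was at 0.174 to 2.09 in normoxic fetuses, at 0.484, 7.20, 29.0 and 0.866 in hypoxic vehicle and at 1.05, 21.4, 0.912 and 7.88 in hypoxic ketamine fetuses. The 4 arrays with high CATHL3 were among the 5 with high IL10. Of the 4 measured T cell and natural killer markers, CD4 was well above background on no array, and the summed level was 0.223 to 0.422 in normoxic, 0.222 to 1.2 in hypoxic vehicle and 0.291 to 0.690 in hypoxic ketamine fetuses. Their part in the results was not tested, and in tissue RNA more cells of a type and more RNA per cell cannot be told apart.

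**Figure D3:**
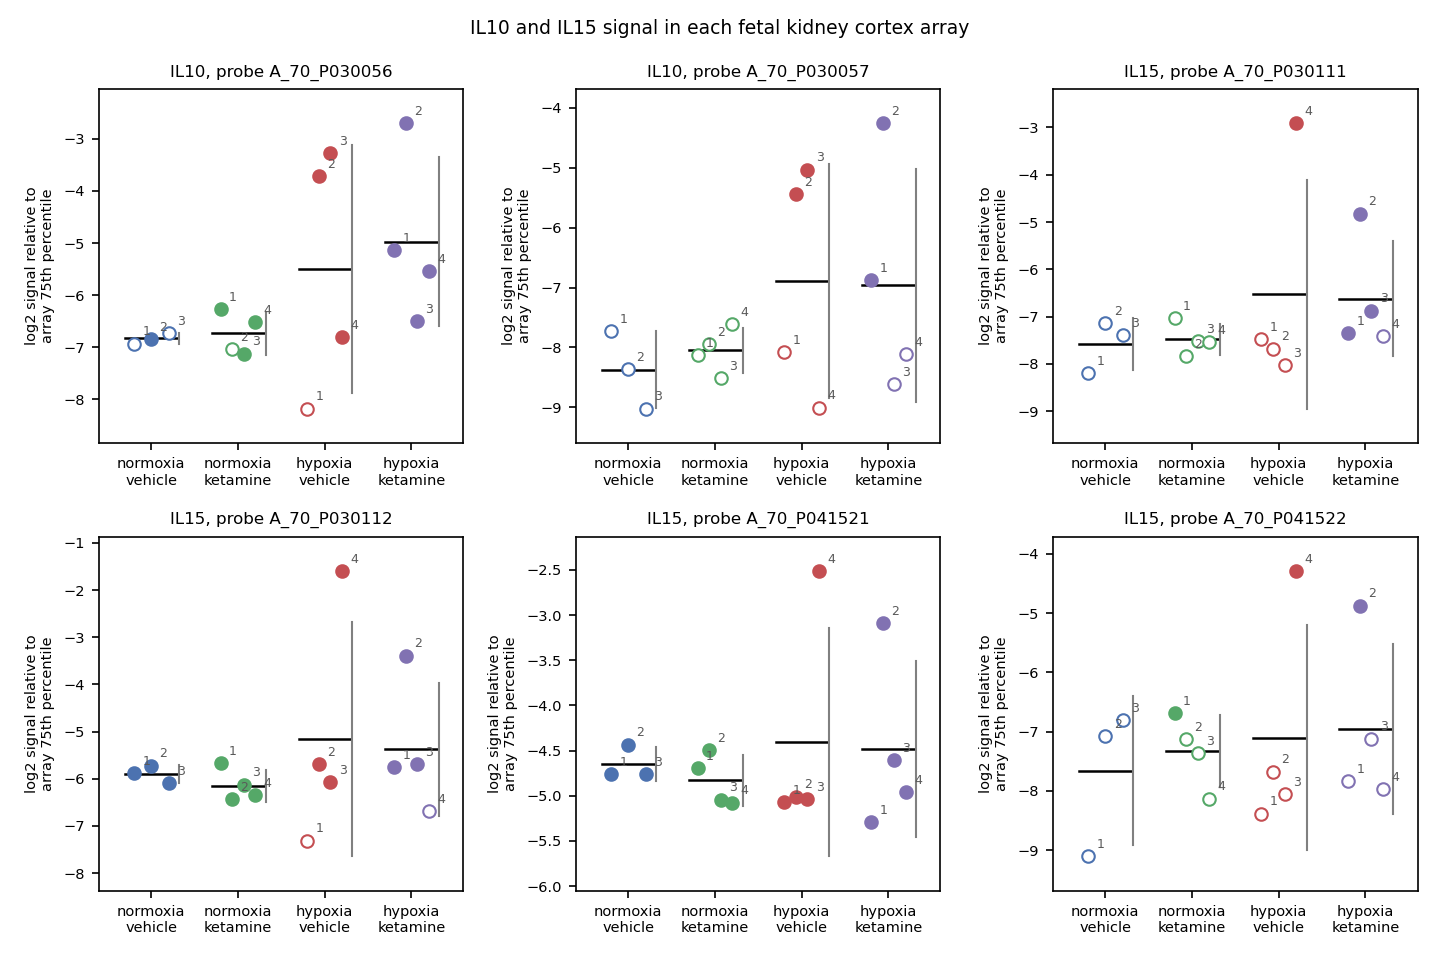
Log2 signal of both IL10 probes and the 4 IL15 probes relative to the array's 75th percentile, by group, with 1 point per fetus labelled by replicate number. Filled points were well above background, black lines are group means and grey bars are ± 1 SD. In IL10, replicates 2 and 3 of hypoxia vehicle and 1 and 2 of hypoxia ketamine are high, whereas all IL15 probes are high in hypoxia vehicle replicate 4 and hypoxia ketamine replicate 2.

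IL15 was high in 1 fetus of each hypoxic group, and in the same fetuses by all 4 probes. Probe A_70_P030112 gave 414 in hypoxia vehicle replicate 4 and 133 in hypoxia ketamine replicate 2, and 6.95 to 27.0 on the other 13 arrays. A_70_P030111 gave 166 and 49.6 on these arrays and 4.78 to 12 on the rest, where 11 of 13 were not well above background. A_70_P041521, well above background on all 15 arrays, gave 220 and 164 against 32.8 to 66.0. A_70_P041522 gave 64.0 and 47.6 against 2.29 to 12.8. These are the arrays that were least like the others over all probes.

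None of the 24 limma tests of IL15 passed (0 at an unadjusted 0.05, smallest adjusted p = 0.452). For A_70_P030112 hypoxia gave a log2 difference of 0.73 ± 1.04 in vehicle fetuses, with a 95% interval from -1.51 to 2.98, and 0.77 ± 0.96 in ketamine fetuses, with one from -1.31 to 2.84. The vehicle value was -0.46 without hypoxia vehicle replicate 4 and 1.45 without replicate 1, so its sign rested on the former. The 4 probes correlated with each other at r from 0.896 to 0.969, but without the 2 fetuses named above 5 of the 6 pairs were at 0.167 to 0.284.

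**Figure D4:**
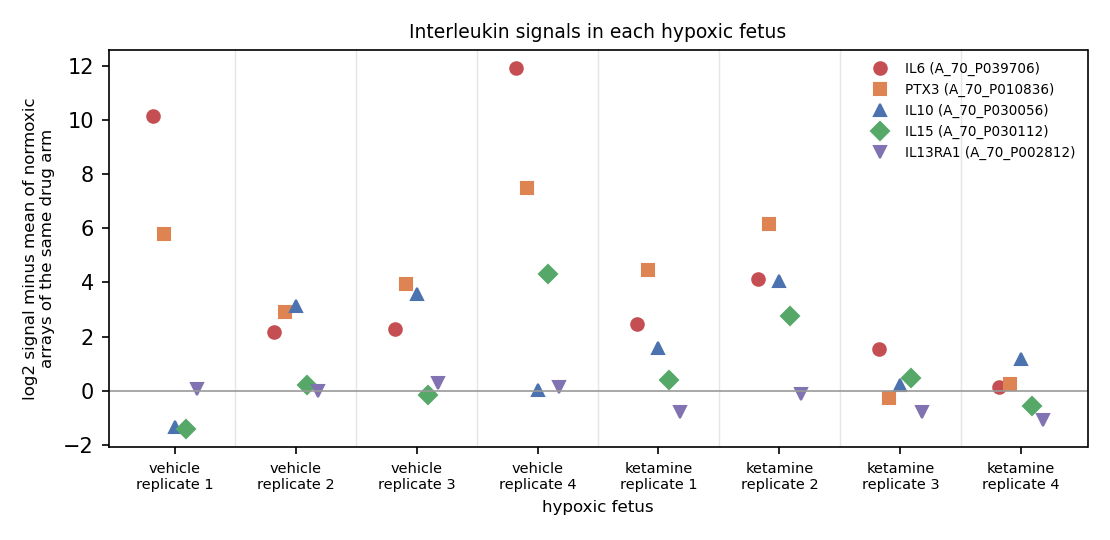
Log2 signal of 1 probe per gene in each of the 8 hypoxic fetuses, minus the mean of the normoxic arrays of the same drug arm (grey line at 0). IL6 is farthest from 0 in vehicle replicates 1 and 4 (10.2 and 11.9), IL10 is near or under 0 in those fetuses, IL15 stands out in vehicle replicate 4 and ketamine replicate 2, and IL13RA1 lies under 0 in all 4 ketamine fetuses. Some normoxic IL6 values were under the detection limit and were not raised to it here, so these differences are not measured folds.

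The genes thus divided the hypoxic fetuses differently. Hypoxia vehicle replicate 4 was high in IL6, PTX3 and IL15 and not in IL10, while hypoxia ketamine replicate 2 was high in PTX3, IL10 and IL15 with dim IL6. Hypoxia vehicle replicate 1 was high in IL6 and PTX3 alone. Hypoxia ketamine replicates 3 and 4 had PTX3 at the normoxic level, and IL6 was at 12.5 in the first and not well above background in the second.

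With values under the detection limit set to it, IL6 and PTX3 correlated over the 15 arrays at r = 0.79 and 0.82. IL6 and IL10 (A_70_P030056) were at -0.137, and at 0.713 without hypoxia vehicle replicates 1 and 4, and PTX3 and IL10 were at 0.424. The arrays share the group structure, so these values describe it and carry no p. Among named genes on the same scale, the 3 whose pattern was most like IL6 were ZFP36 (r = 0.974), CXCL8 (0.962) and CREM (0.949), which fell to 0.739, 0.768 and 0.865 without hypoxia vehicle replicates 1 and 4. For PTX3 probe A_70_P010837 they were SELP (0.982), CEBPB (0.964) and ICAM1 (0.957), at 0.916 or more without the 2 farthest arrays. For IL10 probe A_70_P030056 they were ADORA3 (0.961), ITGB2 (0.959) and SLC11A1 (0.928). For IL15 probe A_70_P030112 they included MX2 (0.937) and MX1 (0.923), which fell to 0.564 and 0.629 without hypoxia vehicle replicate 4 and hypoxia ketamine replicate 2.

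IL13RA1 behaved in another way, with an even level in 11 fetuses and a lower one after hypoxia with ketamine. Probe A_70_P002812 gave 537, 660 and 516 in normoxic vehicle, 594, 476, 469 and 523 in normoxic ketamine and 511, 469, 669 and 610 in hypoxic vehicle fetuses. In hypoxic ketamine fetuses it gave 317, 549, 315 and 238. Relative to the 75th percentile these 4 arrays lay under each of the other 11, with replicate 2 nearest to them. The group means were -1.18 ± 0.06 (SD, n = 3), -1.24 ± 0.08 (n = 4), -1.05 ± 0.13 (n = 4) and -1.92 ± 0.41 (n = 4) in the same order.

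**Figure D5:**
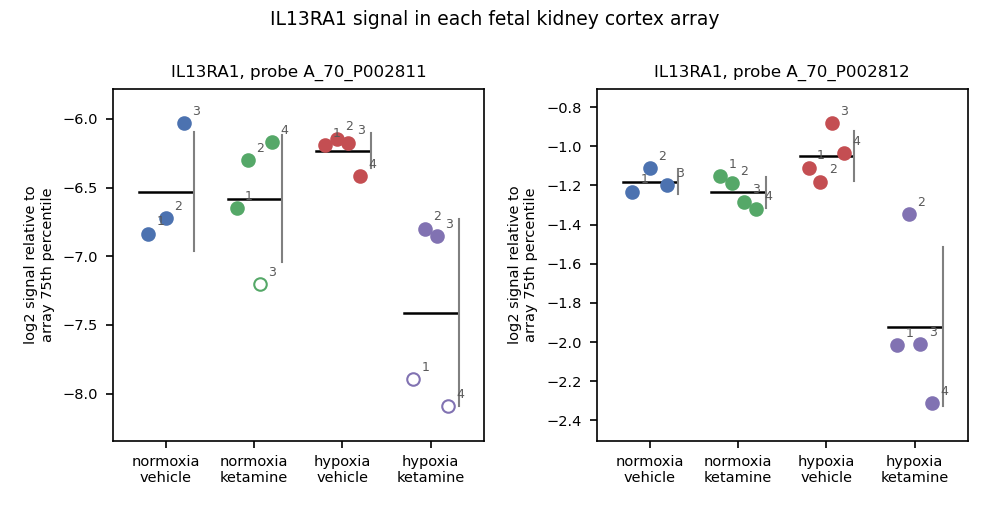
Log2 signal of both IL13RA1 probes relative to the array's 75th percentile, by group, with 1 point per fetus labelled by replicate number. Filled points were well above background, black lines are group means and grey bars are ± 1 SD. In the bright probe A_70_P002812 the hypoxia ketamine fetuses lie from -2.31 to -1.35, under all other fetuses, and in the dim probe A_70_P002811 replicates 1 and 4 of that group are the lowest and not well above background.

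Among hypoxic fetuses, ketamine lowered A_70_P002812 to a log2 difference of -0.87 ± 0.16, with a 95% interval from -1.22 to -0.52. It ranked 1 of 12925 probes by limma's test in that comparison, and the adjusted p was 0.805. Within ketamine fetuses hypoxia changed it by -0.68 ± 0.16 (limma, adjusted p = 0.246), a group difference without overlap that 6.51% of all probes also had. In vehicle fetuses the difference with hypoxia was 0.13 ± 0.18, with a 95% interval from -0.25 to 0.51. The interaction was -0.81 ± 0.24 and passed (adjusted p = 0.989), and these comparisons share the hypoxic ketamine arrays, so they are not separate evidence. Averaged over both arms the value was -0.28 ± 0.12 and passed, and the call was lost when any one of 10 arrays was left out (-0.29 to -0.21), after normexp correction (-0.21) and within either slide (-0.30 and -0.26).

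Hypoxia ketamine replicate 2 was the least lowered of its group. Its placental lactogen signal was 19.3, under the 169 and 110 of normoxia ketamine replicates 1 and 2, which stayed in the fits that follow. Without hypoxia ketamine replicate 2 the difference between hypoxic ketamine and hypoxic vehicle fetuses was -1.06 (limma, adjusted p = 0.00612). That between hypoxic and normoxic ketamine fetuses was -0.88 (adjusted p = 0.0238). Both adjusted p were the smallest over single arrays left out, and they come from dropping the array that showed the fall least. Leaving out any other single array gave -0.91 to -0.74 and an adjusted p of 0.129 to 0.999 for hypoxic ketamine against hypoxic vehicle fetuses. The submitters' deposited log2 values gave -0.81 (adjusted p = 0.586). Within slide 1 it was -0.72 and did not pass, and within slide 2 it was -1.02 and passed, each with 2 arrays per group. The fall against normoxic ketamine fetuses (-0.66) and the interaction (-0.72) did not pass within slide 1 either.

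The dim probe A_70_P002811 had signals of 11.04 to 18.1 in normoxic vehicle, 7.74 to 18.2 in normoxic ketamine and 14.6 to 17.1 in hypoxic vehicle fetuses, and of 5.39, 12.5, 10.98 and 4.32 in hypoxic ketamine fetuses. It too fell in hypoxic ketamine against hypoxic vehicle fetuses (log2 -1.18 ± 0.31, limma, adjusted p = 0.805), against normoxic ketamine fetuses (-0.83 ± 0.31, adjusted p = 0.483) and in the interaction (-1.13 ± 0.46, adjusted p = 0.989). After normexp correction these values were 0.09, 0.20 and 0.31, with the opposite sign, and with dim values set at the detection limit they were -0.58, -0.23 and -0.53, none past the threshold. The interaction was also lost when any one of 6 arrays was left out (-1.03 to -0.90), and the fall against normoxic ketamine fetuses when any one of 4 was (-0.74 to -0.60). Within slide 2 none of the 3 passed (-1.19, -0.69 and -0.54). The probes correlated at r = 0.266 over the 15 arrays, and the fall of IL13RA1 rests on A_70_P002812.

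Ketamine against vehicle in hypoxic fetuses thus moved 2 of 11 member probes, both down and both of IL13RA1, against 6.05% of all probes that moved and 3.48% that fell. The groups did not overlap for these 2 probes, as for 1.97% of all probes in either direction. In the interaction 2 of 11 moved, both down, against 3.13% of all probes that moved and 1.1% that did so downward. The genes most like A_70_P002812 were SCD (r = 0.847), NUS1 (0.747) and CLOCK (0.727), at 0.718, 0.469 and 0.397 without hypoxia ketamine replicates 1 and 4. In normoxic fetuses ketamine moved 0 of 11 member probes at an unadjusted 0.05 in limma, against 2.7% of all probes (adjusted p = 1 for all 11).

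The pathway around these genes was thinly covered. Of 104 further genes of the interleukin-6, interleukin-10, interleukin-15, interleukin-4 and interleukin-13 pathways, acute phase proteins and other interleukins, 16 were on the array by name and 10 were tested. With hypoxia in vehicle fetuses 2 of 10 rose and 0 fell, against 5.76% of all probes that rose and 16.1% that moved, with a median log2 difference of 1.05. CEBPB, a transcription factor of the IL-6 and acute phase response, rose by 2.60 ± 0.76 (limma, adjusted p = 0.172), with signals of 49.7 to 94.3 in normoxic and 86.0 to 1050 in hypoxic vehicle fetuses. IL2RA, the alpha chain of the IL-2 receptor, rose by 1.61 ± 0.58 (adjusted p = 0.22), with signals of 23.2 to 40.9 and 47.5 to 248. Averaged over both arms CEBPB, IL2RA and IL7, a lymphocyte growth factor, rose, which made 3 of 10, against 7.79% of all probes that rose and 20.2% that moved. IL7 was well above background on 2 arrays of each hypoxic group and on 0 arrays of either normoxic group. The filter therefore favours its rise, and its call is no support for one.

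None of the 10 moved with hypoxia in ketamine fetuses, with ketamine in either condition or in the interaction by limma's unadjusted threshold. In ketamine fetuses CEBPB was at 1.33 ± 0.70 and IL2RA at 1.12 ± 0.53. The others tested included the PTX3 partner FGF2, the acute phase proteins CP and SERPINA1, and the cytokines IL12A and IL3. The named probes of IL2, IL4, IL5, IL13, IL12B and CSF2 were well above background on at most 2 arrays and were not tested. None of the 9 genes listed for the IL-10 family was found on the array by name, and IL13 and IL4, which bind IL13RA1, could not be followed beside it.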

How the data were processed

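Total RNA of 15 cortex samples was labelled with Cy3 and hybridised to 1-colour Agilent ovine arrays, 1 fetus each. Per the file headers, spot intensity was corrected for background and spatial trend by Agilent Feature Extraction 10.1.1.1. The submitters' deposited values are in log2 units, and their processing notes name limma without a version, background correction or filter. Column medians of those values were 8.977 to 8.994. In 12 of 15 columns they matched another array of the same group best, so replicate numbers follow the scanner intensities and the deposited log2 values served as an alternative only.

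Probe values are means over spots without an outlier mark. A probe was well above background on an array where a share of 0.5 or more of its spots was so marked. Log2 intensity minus the log2 75th percentile was fitted with limma 3.58.1 in R 4.3.3, with group means over all 15 arrays, a common moderated variance per probe and two-sided tests. The fit was tested on simulated data with normal noise, 1 SD per probe in all groups and no detection limit. That test does not cover probes with unequal spread between groups, such as IL6, or with signals near the limit. Where 1 group had no array well above background, folds set each of its arrays at the higher of its value and its detection limit. Arrays of the other group kept their measured signal, also where not well above background, so these folds are not strict lower bounds. They concern group means of log2 signal and leave out the spread between fetuses. Names came from the array annotation and a RefSeq gene table, and 13448 probes had none.

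The members, lists, tests and alternatives were chosen with earlier results of these data known. The text names all member probes, pathway genes past the threshold and the 3 genes most like a member, except that some items are not reported here. Alternatives were normexp (offset 50), quantile scaling, no filter or 8 arrays, the floor at the detection limit, the deposited values, slide, replicate block, array weights, the compared groups alone and leaving out arrays. Leaving out the lactogen arrays, and hypoxia vehicle replicate 4 with hypoxia ketamine replicate 2, was added after seeing the data. Same-numbered arrays of different groups correlated at a median of 0.036 (-0.291 to 0.37), so numbers were not taken as pairs. The number of arrays limits the precision.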

Additional observations from a re-analysis of the deposited data

Results flagged for a closer look

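Of 33 groups of 4 arrays (11 probes in 3 groups), 3 held an array whose gap to its nearest neighbour took more of the group's range than Dixon's 95% value allows, and chance alone gives about 1 in 20. All were hypoxia vehicle replicate 4. On the log2 scale relative to the 75th percentile it stood at -2.91 in IL15 probe A_70_P030111, with the next array at -7.48, and at -2.51 in A_70_P041521, with the next at -5.01. In the dim IL13RA1 probe A_70_P002811 it was the lowest at -6.42, with the next at -6.19.

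The response of IL13RA1 to hypoxia differed between the drug arms by limma's interaction term without adjustment, at -0.81 for A_70_P002812 and at -1.13 for A_70_P002811 (adjusted p = 0.989 each). Under normexp correction the second had the opposite sign.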

How the results depend on the processing

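Of the 66 log2 differences of the 11 probes in 6 comparisons, 36 changed sign under at least 1 alternative, among them 3 of the 15 called ones, all of A_70_P002811. Under normexp correction these were 0.204 for hypoxia in ketamine fetuses, 0.087 for ketamine in hypoxic fetuses and 0.312 for the interaction, and the cause was not tested. IL15 probe A_70_P030112 in vehicle fetuses was at -0.60 within slide 2 and at -0.46 without hypoxia vehicle replicate 4 and hypoxia ketamine replicate 2 together, and leaving out 1 array gave -0.46 to 1.45. Of the 15 calls, 1 held under every alternative that could be fitted, the averaged rise of PTX3 probe A_70_P010837. With the compared groups alone, IL6 and IL10 A_70_P030056 also passed for hypoxia in ketamine fetuses, and A_70_P010837 did not.

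The number of member probes called was 3 for hypoxia in vehicle fetuses, 3 for hypoxia in ketamine fetuses, 2 and 0 for ketamine in hypoxic and normoxic fetuses, 2 for the interaction and 5 for hypoxia averaged over both arms. Normexp correction gave 5 for hypoxia in ketamine fetuses, 1 for the interaction and 3 for the average. The floor at the detection limit gave 1 for ketamine in hypoxic fetuses and 1 for the interaction. The deposited values, which hold 5 of the probes, gave 1 for hypoxia in ketamine fetuses, 1 for ketamine in hypoxic fetuses and 1 for the interaction. Within slide 1 these were 0, 1 and 1, and the average gave 3. Within slide 2, hypoxia in vehicle and in ketamine fetuses, ketamine in hypoxic fetuses and the average gave 1 each. Ketamine in hypoxic fetuses gave 4 without the arrays with placental lactogen and 4 without hypoxia vehicle replicate 4 and hypoxia ketamine replicate 2. The replicate block gave 3, 2, 2, 0, 2 and 4 in the order above, and the numbers are not pairs. Under it the calls of PTX3 A_70_P010837 in ketamine fetuses (2.91) and of A_70_P002812 in the average (-0.25) were lost. Leaving out 1 array gave 3 to 4, 1 to 5, 2 to 5, 0 to 0, 1 to 3 and 3 to 6. Signals near the detection limit bound what the dim probes of IL6, IL10, IL15 and IL13RA1 can show.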
